A study of Mus musculus with 36 samples.

Results

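Col4a1 and Col4a2 are the 2 genes described here, chosen by symbol from a table of 27562 mouse genes measured in 36 libraries. They encode the α1 and α2 chains of type IV collagen, and both had their highest mean FPKM in the lung alveolar macrophages (AΦ) taken at 32-weeks. The population with their lowest mean was the resident AΦ taken at 4-weeks, though some monocyte libraries lay within or below its range. The pair was chosen with these levels known, so the levels across groups are given as a description, and no test is given for the rise between the time points in resident AΦ.

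All mice were chimeras. Young adult male C57BL/6J (CD45.2) recipients were lethally irradiated with the chest shielded by lead, received busulfan, and were given bone marrow of age- and sex-matched B6.SJL-Ptprca Pepcb/BoyJ (CD45.1) donors. They then breathed filtered air (FA) or concentrated ambient PM2.5 (PM) in chambers for 4 or 32 weeks, and 3 mice a group were sequenced. CD45 type told host from donor cells, and CD45.2 AΦ were called tissue-resident (TR-AΦ) while those of CD45.1 type were called bone marrow-derived (BM-AΦ). AΦ were sorted as CD64+ cells high in CD11c and low in CD11b, and monocytes as Ly6G- MHC II- cells low in CD64 and high in CD11b. The 12 groups of 3 libraries were TR-AΦ at 4-weeks and 32-weeks, BM-AΦ at 32-weeks, monocytes of CD45.2 type at 4-weeks, and at 32-weeks monocytes of CD45.1 (Mono1) and of CD45.2 type (Mono2), each from FA and PM mice. CD45.2 monocytes were cells the host still had after the transplant. The origin of the Mono1 and Mono2 libraries rests on the sample key that accompanies the study. BM-AΦ of the 4-weeks mice were not sequenced. The mice of the 32-weeks groups were also older when sampled, so exposure time, time since transplantation, age and anything else that differed between the time points cannot be told apart.

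Type IV collagen is the network-forming collagen of basement membranes, the thin matrix sheets under epithelium and endothelium. The α1 and α2 chains assemble together in the endoplasmic reticulum into a triple helix, which is secreted and crosslinked into a mesh with laminins, nidogens and perlecan. In the lung the alveolar basement membrane lies between epithelium and capillary, and endothelial cells, pericytes, fibroblasts and epithelial cells are its known sources, while alveolar macrophages are better known for degrading matrix.

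The genes lie head to head on mouse chromosome 8. In GRCm38 (mm10, GENCODE M21) Col4a1 (ENSMUSG00000031502.11) spans chr8:11198423-11312826 on the minus strand with 52 exons, and Col4a2 (ENSMUSG00000031503.13) spans chr8:11312805-11449287 on the plus strand with 48 exons. Their first exons share 22 bases, which are in capitals in this window of the plus strand, shown because both genes start in it.

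Shared first exon bases, chr8:11312801-11312830: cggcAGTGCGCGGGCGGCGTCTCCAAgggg

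RefSeq promoter windows of GRCm38.p6 (250 bases before to 50 after each start) matched both genes. The Col4a1 window, chr8:11312777-11313076 on the minus strand, had a GC content of 74.0%, and the Col4a2 window, chr8:11312555-11312854 on the plus strand, 73.7%. They shared 78 bases and together covered 522. The GC box GGGCGG, searched on both strands, had 1 match in the Col4a1 window and 3 in the Col4a2 window, and 35.7% of all 32851 windows held it. CCAAT had 1 match in each window and was present in 37.4% of all windows. Neither window held TATAAA, which was present in 13.6% of all windows. CACGTG was in neither and in 7.15% of all. TGACTCA was in neither and in 5.2% of all. The GC boxes and CCAAT matches are printed on the plus strand, with the matched bases in capitals, since both genes read out of the same stretch. The third GC box lies in both windows and in the shared exon bases.

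GC box 1, chr8:11312605-11312626: cgcgcccgGGGCGGcaggggac
GC box 2, chr8:11312749-11312770: tgagcgcgCCGCCCgaggagct
GC box 3, chr8:11312804-11312825: cagtgcgcGGGCGGcgtctcca
CCAAT in the Col4a2 window, chr8:11312765-11312785: ggagctccCCAATttgttggc
CCAAT in the Col4a1 window, chr8:11312959-11312979: ttggctcgCCAATcccgggca

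These matches are letters in a window and were not tested as binding sites. The deposited table gives the pair 1 merged locus, chr8:11187755-11449287, together with Gm15418, Gm15419 and Gm44716. The antisense genes Gm15418 and Gm15419 were listed at 0 in 35 and 27 of the 36 libraries, and Gm44716 in 32. The library kit marks strand. Whether the counting used it is not given in the sources used here, and without it reads of a gene and its antisense partner, or of the shared exon bases, cannot be told apart.

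Values are FPKM, fragments scaled to the length of the transcript and to the mapped fragments of the library. No counts were used here, so the depth behind a value is unknown. FPKM summed over genes to between 1839577 and 3339020 a library. The markers of alveolar macrophages summed to 6860 to 14419 FPKM in the AΦ libraries and 291 to 1726 in the monocyte libraries, so every AΦ library carried the markers of its label. Monocyte markers summed to 1256 to 4447 FPKM in the monocyte libraries and 112 to 556 in the AΦ libraries. In some Mono2 libraries, however, the markers of interstitial macrophages summed higher than those of monocytes. Replicates of a group were separate mice, but the populations of 1 exposure and time were sorted from the same 3 mice. The labels do not say which libraries share a mouse, so comparisons between populations were fitted as if the libraries were independent.

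In TR-AΦ at 4-weeks both chains were below 1 FPKM in every library. Col4a1 was 0.521, 0.253 and 0.863 FPKM in FA and 0.469, 0.569 and 0.997 in PM. Col4a2 was 0.596, 0.530 and 0.399 FPKM in FA and 0.827, 0.360 and 0.847 in PM. The FA and PM libraries overlapped for both genes. At this level Col4a1 stood above 50.1% and 50.9% of the listed genes in the FA and PM group means, and Col4a2 above 49.5% and 50.9%.

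At 32-weeks every TR-AΦ library was above every 4-weeks TR-AΦ library. Col4a1, the chain that supplies most of the α1α1α2 protomer, was 4.35, 6.29 and 5.70 FPKM in FA and 5.04, 5.36 and 3.98 in PM. Col4a2, its partner chain, was 4.83, 6.65 and 7.67 FPKM in FA and 6.24, 6.54 and 4.73 in PM. PM replicate 2 (replicates are numbered from 0) was the lowest of the 6 for both chains, and FA and PM overlapped.

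BM-AΦ at 32-weeks, cells of donor marrow origin, overlapped with them. Col4a1 was 5.69, 6.20 and 8.13 FPKM in FA and 6.43, 5.98 and 3.80 in PM. Col4a2 was 7.38, 8.21 and 8.87 FPKM in FA and 9.48, 7.69 and 4.36 in PM. PM replicate 2 was again the lowest of the 6 for both chains. At 32-weeks the pair stood above 70.9% to 74.7% (Col4a1) and 73.3% to 77.2% (Col4a2) of listed genes in the AΦ groups.

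The monocytes held low levels of both chains at both time points. At 4-weeks Col4a1 was 1.35, 1.19 and 1.19 FPKM in FA and 1.41, 1.55 and 1.24 in PM. Col4a2 was 1.24, 1.19 and 0.919 FPKM in FA and 0.894, 0.642 and 1.68 in PM. FA and PM overlapped, and for Col4a1 every monocyte library was above every TR-AΦ library of that time.

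In the CD45.1 monocytes (Mono1) at 32-weeks Col4a1 was 1.65, 1.32 and 0.822 FPKM in FA and 1.12, 1.29 and 1.15 in PM. Col4a2 was 1.12, 0.545 and 0.126 FPKM in FA and 0.735, 1.01 and 0.773 in PM. Both chains were lowest in FA replicate 2. In the CD45.2 monocytes (Mono2) Col4a1 was 3.29, 2.04 and 2.16 FPKM in FA and 2.23, 3.53 and 1.18 in PM. Col4a2 was 1.35, 1.38 and 0.424 FPKM in FA and 1.33, 2.08 and 0.991 in PM. Mono2 had the highest Col4a1 of the monocytes, with 1 PM library at the level of Mono1.

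**Figure D1:**
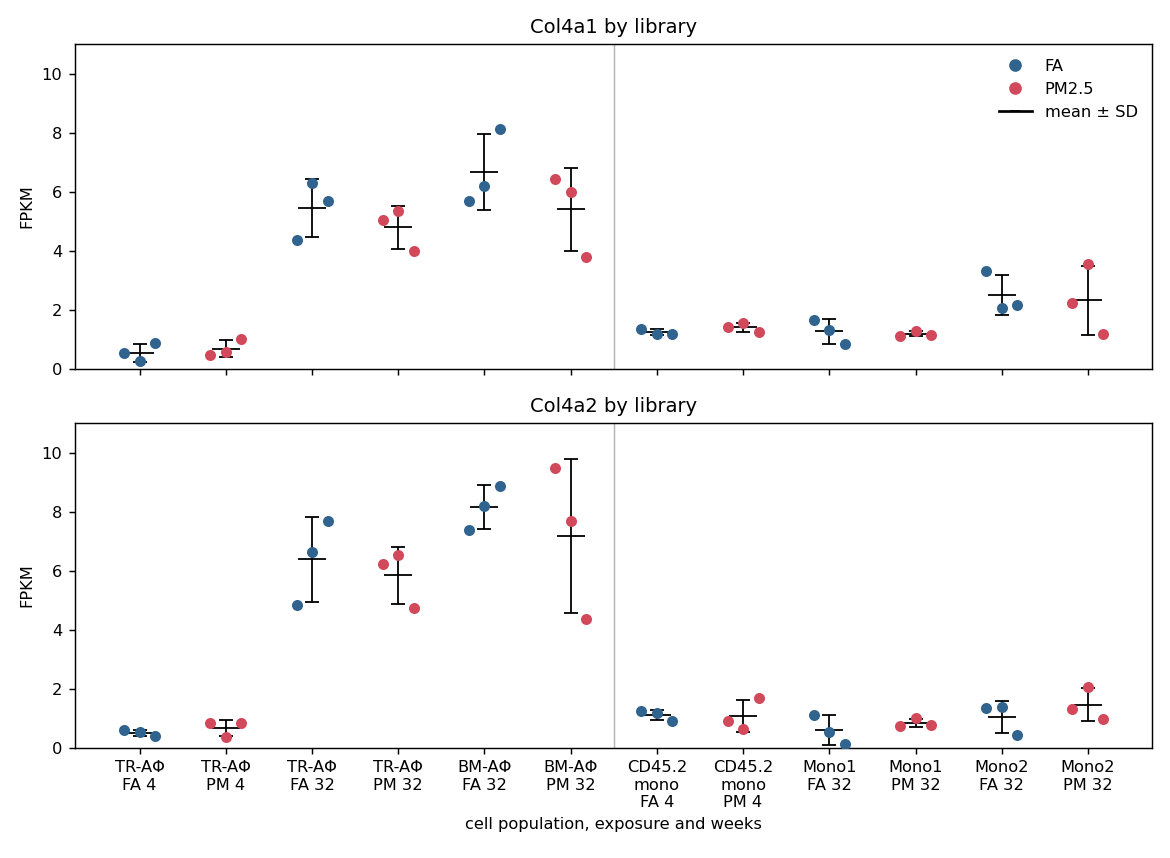
FPKM (vertical axis) of Col4a1 (upper panel) and Col4a2 (lower panel) in each of the 36 libraries, with 1 point a library in 12 groups named by population, exposure and weeks, and bars for mean ± SD (n = 3). The AΦ of 32-weeks, TR-AΦ and BM-AΦ alike, run from 3.80 to 9.48 FPKM, and the TR-AΦ of 4-weeks below 1 FPKM.

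Ordered by group mean, Col4a1 was highest in the AΦ of 32-weeks, then in the monocytes, and lowest in the TR-AΦ of 4-weeks. BM-AΦ FA (6.67 ± 1.29 FPKM, SD, n = 3), TR-AΦ FA of 32-weeks (5.44 ± 0.994), BM-AΦ PM (5.40 ± 1.41) and TR-AΦ PM of 32-weeks (4.79 ± 0.723) led, and neighbours among them overlapped. They were separated without overlap from the monocytes, which ran from Mono2 FA (2.5 ± 0.691 FPKM) to Mono1 PM (1.19 ± 0.0921) with overlap between neighbours. TR-AΦ of 4-weeks, PM (0.678 ± 0.281 FPKM) and FA (0.546 ± 0.306), came last, with no overlap between PM and Mono1 PM, the group before it. Mono1 FA replicate 2, at 0.822 FPKM, was however below replicate 2 of the 4-weeks TR-AΦ in FA (0.863) and PM (0.997). The monocytes and the 4-weeks TR-AΦ thus overlapped for Col4a1 too. For Col4a2 the 4 AΦ groups of 32-weeks led likewise, from BM-AΦ FA (8.15 ± 0.745 FPKM) to TR-AΦ PM (5.84 ± 0.971), without overlap with the group that followed. Below them Mono2 PM (1.46 ± 0.556 FPKM) down to TR-AΦ FA of 4-weeks (0.508 ± 0.10) overlapped from neighbour to neighbour, so that monocytes and 4-weeks TR-AΦ were not separated.

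Within FA mice the group mean of Col4a1 was 9.97 times higher in TR-AΦ at 32-weeks than at 4-weeks, and that of Col4a2 12.6 times higher. On the log2(FPKM + 1) scale, which understates the change of low genes, the differences were 2.07 (SE 0.21) and 2.27 (SE 0.23). Within PM mice the ratios were 7.06 and 8.61, with differences of 1.79 and 2.03 on the log2 scale. Neither gene overlapped between the time points in either exposure. Of all 12665 genes tested in AΦ, 7.62% were higher without overlap in FA mice and 10.1% in PM mice, and 0.15% and 0.268% were called higher at an adjusted p under 0.05. These shares are printed beside the pair only as a background, since the pair was chosen with this rise known. In sorted bulk libraries, fewer cells that express a gene and less RNA of it per cell cannot be told apart.

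The balance of the chains also differed between the cell types. The FPKM ratio of Col4a2 to Col4a1 was above 1 in 12 of 12 AΦ libraries of 32-weeks, between 1.06 and 1.48 with a median of 1.23. It was below 1 in all 12 monocyte libraries of 32-weeks, between 0.153 and 0.780 in Mono1 and between 0.196 and 0.838 in Mono2. In the 4-weeks monocytes it ran from 0.415 to 1.36, with Col4a1 higher in 4 of 6 libraries. In the 4-weeks TR-AΦ, where both chains were near 0.5 FPKM, it ran from 0.462 to 2.09 with 3 libraries on each side of 1. These ratios were looked at after the values were seen and were not tested.

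**Figure D2:**
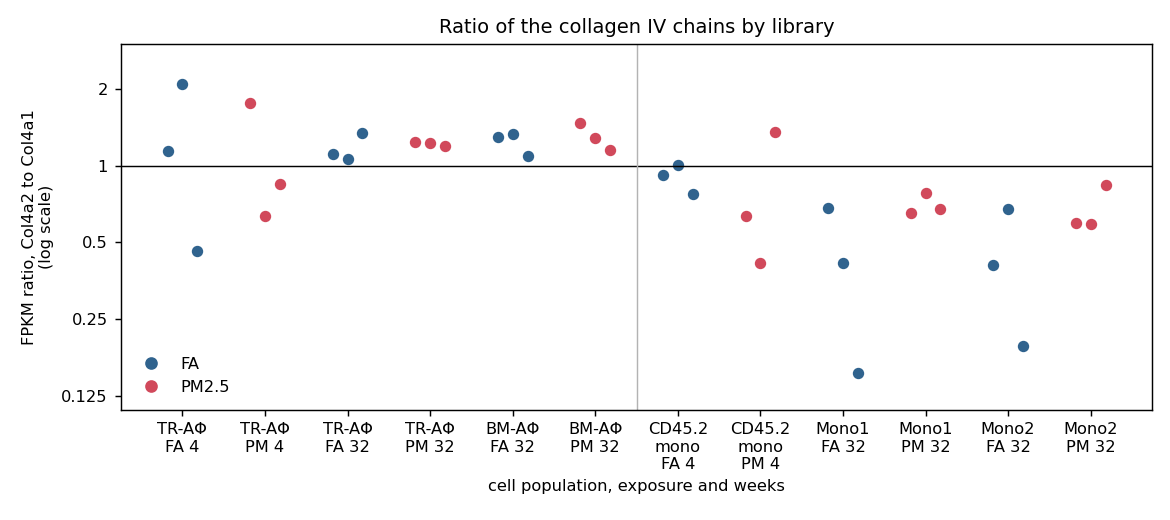
FPKM ratio of Col4a2 to Col4a1 (log scale, vertical axis) in each library of the 12 groups, 1 point a library, with a line at a ratio of 1. The 12 AΦ libraries of 32-weeks lie above 1, from 1.06 to 1.48, and the 12 monocyte libraries of 32-weeks lie below it.

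The values of the chains were correlated across libraries where they were high. On the log2(FPKM + 1) scale Pearson's r between Col4a1 and Col4a2 was 0.985 (Spearman's rho 0.944) over the 18 AΦ libraries and 0.92 (rho 0.923) over the 12 AΦ libraries of 32-weeks. With the group means removed, r was 0.679 over the 18 and 0.908 over the 12, so the step between the time points made up part of the value over the 18. Over the 6 TR-AΦ libraries of 4-weeks r was 0.127, and over the 18 monocyte libraries 0.544. These values are descriptions of points that share a library and its depth.

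The remaining chains of the family, which form other type IV networks with restricted tissue distribution, were at or near 0. The highest value of Col4a3 in any library was 0.369 FPKM, of Col4a4 0.132, of Col4a5 0.0677 and of Col4a6 0.0344. Col4a5 was listed at 0 in 29 libraries and Col4a6 in 32. None passed the filter on low values (a mean of at least 1 FPKM), so none was tested.

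PM2.5 exposure was the question of the study, and neither chain passed the test for it in any of the 6 populations. Each difference below is PM minus FA on the log2(FPKM + 1) scale from limma with its 95% interval, and every adjusted p for the pair was 1. At 4-weeks both chains averaged under 1 FPKM in TR-AΦ and passed the filter only through the AΦ of 32-weeks, so that comparison says little. In TR-AΦ Col4a1 differed by 0.12 (-0.33 to 0.58) at 4-weeks and by -0.15 (-0.61 to 0.31) at 32-weeks, and in BM-AΦ by -0.27 (-0.73 to 0.18). Col4a2 differed by 0.14 (-0.34 to 0.63), -0.10 (-0.59 to 0.38) and -0.21 (-0.70 to 0.27) in the same order. With a pseudocount of 0.1 the 4-weeks differences were 0.33 (SE 0.35) for Col4a1 and 0.30 (SE 0.32) for Col4a2. The FA and PM libraries overlapped for both genes in all 3 AΦ populations, and the exact two-sided permutation p ran from 0.4 to 0.8, where the smallest that 3 against 3 allows is 0.1. Of all genes tested 0.0079%, 0% and 0.0158% were called in these 3 comparisons, and 5.82%, 5.98% and 6.44% did not overlap.

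In the monocytes Col4a1 differed by 0.10 (-0.45 to 0.64) at 4-weeks, -0.033 (-0.58 to 0.51) in Mono1 and -0.12 (-0.67 to 0.42) in Mono2. Col4a2 differed by -0.058 (-0.73 to 0.61), 0.25 (-0.42 to 0.91) and 0.28 (-0.39 to 0.95). In Mono1 Col4a2 averaged 0.718 FPKM and passed the filter only through the other monocyte groups, so that comparison says little. FA and PM overlapped in each. With a pseudocount of 0.1 the Col4a2 differences were -0.14, 0.73 and 0.53. The background was 0.00778%, 0% and 0% of genes called, and 6.57%, 8.89% and 6.39% without overlap. The exposure difference in BM-AΦ minus that in TR-AΦ at 32-weeks was -0.12 (-0.77 to 0.52) for Col4a1 and -0.11 (-0.80 to 0.58) for Col4a2, with an adjusted p of 1 for each (limma) and 0.0158% of genes called. A difference between the origins in the response to PM2.5 was thus not detected for the pair, within these intervals.

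BM-AΦ of 32-weeks are set beside the monocytes of the same donor origin, Mono1, as a description, since the pair was chosen with the levels of these libraries known. Col4a1 was 6.04 ± 1.39 FPKM in the 6 BM-AΦ libraries and 1.23 ± 0.274 in the 6 Mono1 libraries, a ratio of 4.92 and a difference of 1.64 (SE 0.16) on the log2(FPKM + 1) scale. Col4a2 was 7.67 ± 1.79 against 0.718 ± 0.356 FPKM, a ratio of 10.7 and a difference of 2.33 (SE 0.18). All 6 BM-AΦ libraries were above all 6 Mono1 libraries for both genes. AΦ and monocytes differed widely, with 50.9% of genes called, 27.1% in this direction, and 16.1% higher without overlap.

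The other cell type comparisons are given as values. BM-AΦ were above TR-AΦ of 32-weeks by 0.19 (Col4a1) and 0.27 (Col4a2) on the log2 scale, with overlap, where 1.37% of genes did not overlap. TR-AΦ were above Mono2 at 32-weeks by 0.87 and 1.68 without overlap, where 26.9% of genes did not overlap in either direction. At 4-weeks the order was the opposite, with TR-AΦ below the CD45.2 monocytes for Col4a1 (-0.54), without overlap, and for Col4a2 (-0.39), with overlap, where 29.8% of genes did not overlap.

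The CD45.2 monocytes of 32-weeks and 4-weeks are also set side by side as a description, since the pair was chosen with these levels known. Col4a1 was 2.41 ± 0.869 FPKM in the 6 Mono2 libraries and 1.32 ± 0.142 in the 6 of 4-weeks. The difference was 0.52 (SE 0.18) on the log2 scale, and the groups overlapped. Without the single Mono2 library at the level of the 4-weeks monocytes, PM replicate 2, the difference was 0.65. Col4a2 differed by 0.089 (SE 0.22). In this comparison 14.9% of genes were called, 7.06% higher, and 7.72% did not overlap.

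Markers of other cells moved with Col4a1 in these monocytes. The summed platelet markers were 73.1 to 289 FPKM in Mono2 against 1.69 to 14.9 in the 4-weeks monocytes, and those of interstitial macrophages 1287 to 3998 against 323 to 747, both without overlap. The platelet sum rests on few genes. Of its 5 markers only 2 averaged at least 1 FPKM in Mono2 and 1 in the 4-weeks monocytes, and Gp9 was at 0 in Mono2. Monocyte markers were lower, 1256 to 3235 against 3388 to 4447. In Mono2 FA replicates 0 and 1 and PM replicate 1 the interstitial macrophage sum was above the monocyte sum. It was 3998, 2435 and 3396 FPKM in them, against 1256, 2057 and 1571. The Mono2 libraries with the highest Col4a1, PM replicate 1 and FA replicate 0, had the highest platelet, interstitial macrophage, endothelial and fibroblast sums of the 6. Their pericyte and smooth muscle sums were the highest too. PM replicate 2, the lowest in Col4a1, had the lowest platelet, interstitial macrophage, endothelial and fibroblast sums, but not the lowest pericyte and smooth muscle sum. Without both of the highest libraries the difference was 0.31. Because they are also the highest in Col4a1, leaving them out lowers the difference whatever their markers, and nothing is read from the fall. At 4-weeks replicate 2 of FA and of PM had neutrophil sums of 315 and 995 FPKM against at most 42.8 in the other 4 libraries. Without both of these the difference was 0.48. The part of these cells in the Col4a1 level was not tested.

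Mono2 and Mono1 at 32-weeks, populations of the same mice, are likewise described without a test, since the pair was chosen with these levels known. Col4a1 differed by 0.58 (SE 0.18), a ratio of 1.96. Without both Mono2 libraries of the highest sums, which are also the highest in Col4a1, the difference was 0.38, a fall that leaving them out brings by itself. Platelet sums were 73.1 to 289 against 6.73 to 33.0 FPKM in this comparison too, where 1 of the 5 platelet markers averaged at least 1 FPKM in Mono1. Col4a2 differed by 0.39 (SE 0.22), and both chains overlapped between the groups. Of all genes 0.669% were called and 1.18% did not overlap.

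The other genes of the collagen pathway were taken from lists by role, and a gene was tested if its mean reached 1 FPKM in the 18 AΦ libraries. Of 15 tested genes of chain synthesis, folding and export, 0 passed at an adjusted p under 0.05 (limma) between 32-weeks and 4-weeks in FA mice, nor did any of 3 basement membrane genes, 4 collagen receptors or 8 degrading enzymes and inhibitors. In PM mice 0 passed likewise. Since 0.782% and 1.05% of all genes were called, lists of this size would hold few calls, and nothing is read from the count. The list medians on the log2 scale were 0.18, 0.42, 0.041 and 0.090 in FA and 0.11, -0.018, 0.24 and 0.13 in PM, against 0.01 and 0.03 for all genes. None of the 10 interstitial collagens, the fibril-forming matrix chains and their associates, passed the filter.

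**Figure D3:**
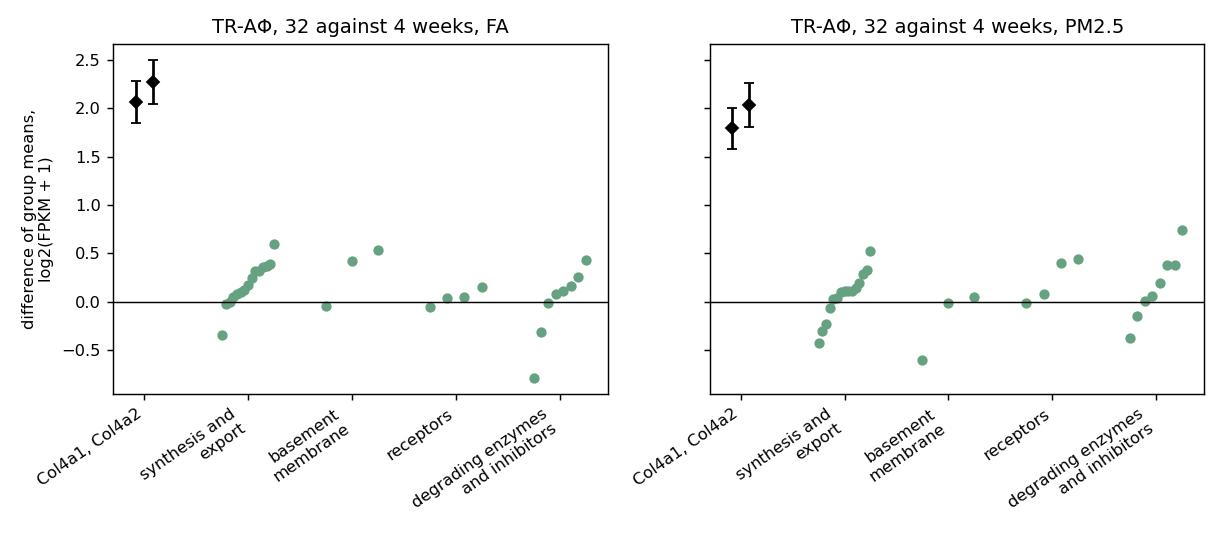
Difference between 32-weeks and 4-weeks in TR-AΦ (log2(FPKM + 1), vertical axis) for FA mice (left) and PM mice (right), with diamonds and SE bars for Col4a1 and Col4a2 and 1 point for each tested gene of 4 pathway lists. The pair lies between 1.79 and 2.27, and every list gene lies below 1 in both panels.

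The enzymes that fold and modify collagen chains were present in AΦ at both times. P4hb, the disulfide isomerase that is also the β subunit of prolyl 4-hydroxylase, had means of 137, 155 and 157 FPKM in TR-AΦ of 4-weeks, TR-AΦ of 32-weeks and BM-AΦ. Ppib, a prolyl isomerase, had 75.5, 80.8 and 94.7, and Plod3, a lysyl hydroxylase, 22.6, 23.6 and 23.3. Colgalt1, which adds galactose to hydroxylysine, had 55.1, 75.3 and 71.8 FPKM. Its time difference was 0.39 in FA (adjusted p = 0.269, limma) and 0.53 in PM mice (adjusted p = 0.0914), so it did not pass. Serpinh1, the collagen chaperone HSP47, averaged 0.435, 0.194 and 0.133 FPKM and was below the filter while the pair was high.

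Of the partners in the basement membrane, the laminin γ1 chain Lamc1 averaged 3.23, 3.86 and 5.08 FPKM in the same 3 populations. Col15a1 averaged 3.82, 3.79 and 3.86, Agrn, a heparan sulfate proteoglycan, 2.89, 2.91 and 2.05, and Sparc, a collagen-binding protein, 0.72, 0.60 and 0.85. These are means over 6 libraries a population, and none of the 3 that were tested was called over time in TR-AΦ. Among receptors, Itgb1, the β1 integrin chain, averaged 120, 121 and 129 FPKM, and Lair1, an inhibitory collagen receptor, 21.1, 25.9 and 25.4. Among proteases, cathepsin S (Ctss) averaged 1005, 1131 and 1267 FPKM, cathepsin K (Ctsk) 78.6, 107 and 133, and Mmp19 72.7, 76.1 and 114.

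Between BM-AΦ and Mono1, where the mean over all 36 libraries set the filter, 13 of 38 list genes were higher and 7 lower. This is near the 50.9% called among all genes, so the lists are described by their genes only. Of 15 tested synthesis genes 7 were higher in BM-AΦ and 1 lower, against 27.1% and 23.8% of all genes, with a median of 0.32 against 0.03 over all genes. Colgalt1 was 71.8 ± 5.86 against 16.9 ± 3.08 FPKM, a difference of 2.04 on the log2 scale. Creb3l2, a transcription factor of the secretory pathway, differed by 1.21, Crtap, a part of the prolyl 3-hydroxylase complex, by 0.96, Plod1 by 0.77, Creb3 by 0.68, Plod3 by 0.46 and P4hb by 0.36. Ctage5, which takes part in collagen export, was lower (difference -0.79). Of 4 basement membrane genes 1 was higher, Col15a1, at 3.86 against 0.835 FPKM (difference 1.45).

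Of 7 receptors 4 were lower in BM-AΦ and 0 higher. Ddr1, a collagen receptor kinase, differed by -2.14, Itgb3 by -1.49, Adgrg6, an adhesion receptor that binds collagen IV, by -1.15 and Itgav by -0.96. Of 11 enzymes and inhibitors 5 were higher, Ctsk (133 against 2.55 FPKM, difference 5.37), Mmp19 (2.38), Ctsl (1.57), Timp2 (0.70) and Ctss (0.62). Mmp9, a gelatinase that cleaves collagen IV, was lower (-1.44), as was the interstitial collagen Col14a1 (-1.02).

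In the CD45.2 monocytes between 32-weeks and 4-weeks, 14 of 38 list genes were higher and 4 lower, against 7.06% and 7.83% of all genes. The lists of degrading enzymes and inhibitors held 6 of them, all higher, which were Timp2 (2.33), Mmp14 (2.0), Mmp12 (2.0), Mmp13 (1.96), Timp3 (1.93) and Ctsk (1.91). Basement membrane genes Lamc1 (2.04) and Sparc (1.07), the receptor Adgrg6 (1.57) and Col14a1 (2.35) were higher too, and Itgb3 was lower (-1.46). Of synthesis genes P3h2 (2.69), Crtap (0.77), Creb3l2 (0.69) and Colgalt1 (0.61) were higher and P4ha1 (-0.63), Plod3 (-0.55) and Creb3 (-0.46) lower. The marker sums of interstitial macrophages and platelets given above moved with these genes, and their part was not tested. Between Mono2 and Mono1 only Timp2 of the 38 passed, against 0.591% of all genes called higher (84.8 against 30.5 FPKM, difference 1.43, adjusted p = 0.0304, limma). For exposure, 0 list genes passed in any population (limma), where 0% to 0.0158% of all genes were called.

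The known sources of collagen IV in lung were looked for among the AΦ libraries by marker lists. The 12 endothelial markers summed to 7.63 to 14.1 FPKM in TR-AΦ at 4-weeks, 6.82 to 14.5 at 32-weeks and 6.38 to 15.2 in BM-AΦ, so the ranges overlapped, and Emcn was at 0 in TR-AΦ of 32-weeks. Vwf alone averaged 5.18, 5.15 and 4.54 FPKM. Pearson's r of the endothelial sum with the pair was -0.10 over the 18 AΦ libraries and -0.444 over the 12 of 32-weeks. The 11 fibroblast markers summed to 0.867 to 14.6, 1.22 to 3.33 and 1.19 to 4.53 FPKM, with Col13a1 at 0 at 4-weeks, Lum at 0 in TR-AΦ of 32-weeks, and Col13a1, Dcn and Lum at 0 in BM-AΦ. The r of the fibroblast sum with the pair was -0.195 over the 18 AΦ libraries and -0.392 over the 12 of 32-weeks.

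The 9 pericyte and smooth muscle markers summed to 2.57 to 3.22 FPKM in TR-AΦ at 4-weeks and 0.80 to 2.2 at 32-weeks, which was lower without overlap, and to 2.08 to 8.10 in BM-AΦ. Cnn1 was at 0 in all 3 and Trpc6 in TR-AΦ of 32-weeks. AT1 markers, of the thin alveolar epithelium, summed to 9.69 to 28.9, 17.4 to 34.0 and 22.9 to 43.3 FPKM, with overlap and an r of 0.634 with the pair over 18 libraries and 0.384 over the 12 of 32-weeks. Only 2 of the 7 AT1 markers averaged at least 1 FPKM in each of these populations. The AT1 sum was 28.3 to 71.0 FPKM in the monocytes, where the pair was low. AT2 markers summed to 16.3 to 31.5, 15.4 to 27.5 and 13.8 to 24.6. Platelet markers summed to 11.3 to 36, 1.0 to 17.5 and 10.6 to 29.5 FPKM, and interstitial macrophage markers to 48.5 to 684, 25.8 to 81.3 and 47.3 to 356. Only 1 of the 5 platelet markers averaged at least 1 FPKM in each of these populations. Of the marker lists, that of pericytes and smooth muscle was the only one without overlap between the time points in TR-AΦ. Its sum was lower there at 32-weeks but reached 8.10 in BM-AΦ. Its r with the pair was 0.1 over the 18 libraries and 0.391 over the 12 of 32-weeks. The part of these cells, AT1 included, in the level of the pair was not tested.

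**Figure D4:**
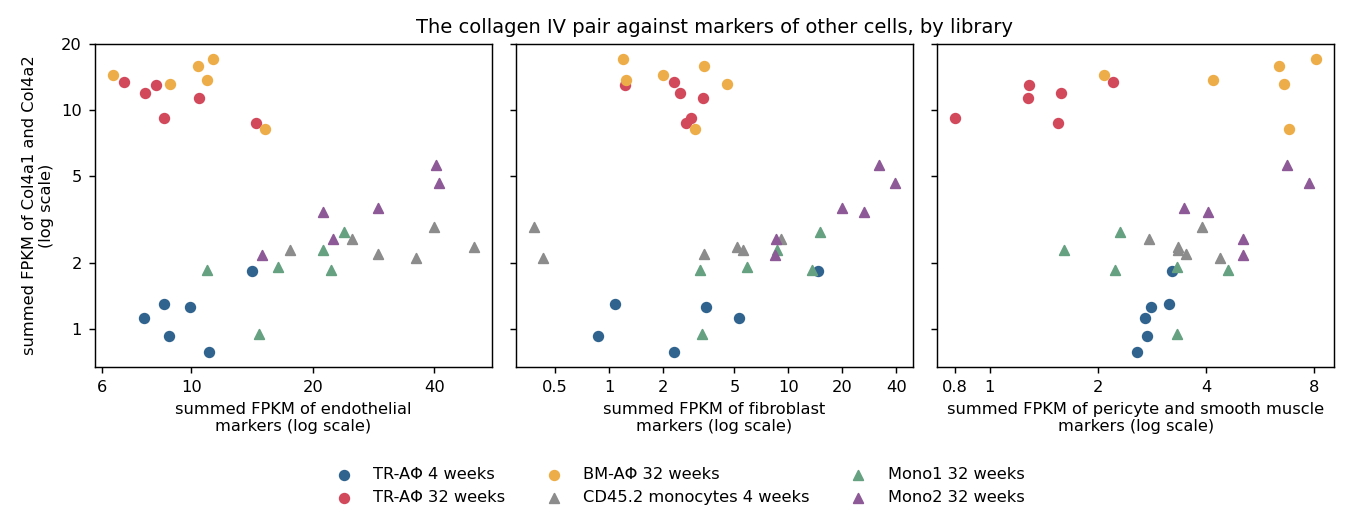
Summed FPKM of Col4a1 and Col4a2 (log scale, vertical axis) against the summed FPKM of endothelial, fibroblast, and pericyte and smooth muscle markers (log scale, horizontal axis, 1 panel each), with circles for AΦ libraries and triangles for monocyte libraries. The TR-AΦ of 4-weeks and 32-weeks share the range of the endothelial sum, 6.82 to 14.5 FPKM, and are separated along the axis of the pair.

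The genes with the pattern nearest to that of the pair were ranked by Pearson's r of log2(FPKM + 1) with the mean of both chains. Over the 18 AΦ libraries Bcam, a laminin-binding cell surface protein, was nearest of 12663 genes (r = 0.929), with 5.47, 12.6 and 13.7 FPKM in TR-AΦ of 4-weeks, TR-AΦ of 32-weeks and BM-AΦ. Zfp91 (0.885), Coro2b (0.882), 1700017B05Rik (0.881), Tpbgl (0.88), Ei24 (0.878), Aplp2 (0.878), Lonp1 (0.871), Nuak2 (0.868) and Gpr157 (0.866) followed. Over all 36 libraries the nearest of 13305 genes were Arf3 (0.799), Chpf2 (0.798), Lonp1 (0.795), Sh3bgrl3 (0.794), Mlph (0.778), Ncaph (0.778), Gps1 (0.77), Ctsz (0.767), Lgals3bp (0.767) and Gorasp2 (0.764). Only Lonp1 was on both lists. The r of the chains with each other was 0.985 in AΦ and 0.935 over all 36 libraries. Ranked by Spearman's rho over the 18 AΦ libraries, Zfp91 (0.911) and Ei24 (0.901) came nearer to the rho of the chains, 0.944, and 3 of the 10 nearest genes were the same as by Pearson's r.

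The levels of the neighbours on chromosome 8 were as follows. Distances are gaps between listed loci, which can merge several genes, and are taken from the merged locus of the pair given above. Rab20, a small GTPase gene 4.23 kb from the pair, averaged 47.4 ± 6.08 FPKM in TR-AΦ at 4-weeks and 32.4 ± 10.5 at 32-weeks. Irs2, 133 kb from the merged locus, averaged 121 ± 9.4 and 91.3 ± 17.3. Carkd, 48.2 kb away, averaged 2.66 and 2.91. E230013L22Rik averaged 8.04 and 3.10 FPKM, RP24-92F8.4 12.5 and 7.02 and Gm44956 1.30 and 0.81, so that of these 6 only Carkd had a higher mean at 32-weeks.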

How the data were processed

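RNA was measured by stranded, poly(A)-based RNA-seq of sorted cells. The authors trimmed the reads, aligned them with STAR to mm10 with GENCODE genes, and made FPKM with Cufflinks, and the deposited table holds these FPKM values for 27562 genes in 36 libraries, all of which were mapped to a sample. Low values showed no common step between libraries, so read counts were not recovered and the depth is unknown.

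FPKM were tested on log2(FPKM + 1) with limma 3.58.1 (R 4.3.3), with 1 mean per group, a mean-variance trend and Benjamini-Hochberg adjustment over genes whose mean reached 1 FPKM. The 18 AΦ libraries (12665 genes), the 18 monocyte libraries (12856 genes) and all 36 libraries (13307 genes) were fitted separately. These fits gave the differences of the pair over time in TR-AΦ and in the other cell type comparisons, with no p computed. For the pair a p was computed in 10 comparisons. Those of BM-AΦ with Mono1, of Mono2 with Mono1 and of the CD45.2 monocytes over time are given without a p. The pair was chosen with those levels known. The exposure differences were also tested by exact two-sided permutation. On simulated data modelled on the AΦ libraries 152 of 200 changed genes and 6 of 12465 unchanged genes were called.

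Genes were named by rule: the pair in every library, list genes past the threshold in a comparison given, the up to 4 highest of each list in AΦ, the 10 nearest in pattern and the nearest genes on chromosome 8. Serpinh1, the other chains and the genes at 0 within marker lists were named besides. The members, lists and rules were chosen with earlier results of these data known. Alternatives were another pseudocount, no filter, quantile normalization, the replicate number as a block, only the libraries compared and each library left out. Leaving out pairs of monocyte libraries was chosen after seeing the data. Replicate numbers were not taken as pairs.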

Additional observations from a re-analysis of the deposited data

How the results depend on the processing

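The values are FPKM with unknown depth, each group held 3 mice, and time cannot be told apart from age. The settings were a pseudocount of 0.1, no filter, quantile normalization, the replicate block and a fit of only the libraries compared. Under them each difference of the pair that could be fitted kept its direction, with a single exception. The Col4a2 difference of the CD45.2 monocytes over time was -0.036 under quantile normalization. In fits of only the libraries compared, the mean was under the filter for both chains in TR-AΦ of 4-weeks and for Col4a2 in Mono1 and between Mono2 and Mono1, and for Col4a2 this also removed values with monocyte libraries left out. Under none of these settings did a test of exposure, or of its interaction with origin, change side of the threshold for the pair. Same-numbered libraries correlated at -0.088 to 0.21, with 0 of 22 group pairs over 0.1 for every number, and in 5 of 22 every sample correlated best with its own number. The alveolar macrophage marker sum was in the order of the numbers in 11 of 12 groups, so the numbers carry something shared that the labels do not name.

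With 1 library left out at a time, Col4a1 in the CD45.2 monocytes over time ran from 0.39 to 0.65, the highest without Mono2 PM replicate 2. The exposure differences changed sign for Col4a1 in TR-AΦ of 4-weeks (-0.017 to 0.27), Mono1 (-0.18 to 0.090) and Mono2 (-0.38 to 0.15), and for Col4a2 in TR-AΦ of 32-weeks (-0.26 to 0.024), BM-AΦ (-0.42 to 0.063) and 4-weeks monocytes (-0.13 to 0.094). The origin by exposure difference ran from -0.24 to 0.071 for Col4a1 and from -0.32 to 0.17 for Col4a2. The count of pathway genes called over time in TR-AΦ of PM mice ran from 0 to 1, with 1 without the 4-weeks PM replicate 0. The cause was not tested.

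Counts over all genes moved more. Over time in TR-AΦ, 99 genes were called in FA and 133 in PM mice, against 15 and 18 with only the libraries compared, 211 and 408 with the replicate block, and 50 to 144 and 54 to 251 with 1 library left out. Between Mono2 and Mono1 the count was 86, against 59 with only the libraries compared, 149 with no filter, 45 without Mono2 FA replicate 0, 152 without Mono2 FA replicate 2 and 32 without both Mono2 libraries of the highest marker sums. In the CD45.2 monocytes over time it was 1914, and 978 without those 2. Leaving out both 4-weeks monocyte libraries with neutrophil transcripts gave 1156. For exposure and its interaction with origin it was 0 to 2, and at most 11.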
